A study of Mus musculus with 32 samples.

Results

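The EGF-receptor ligands amphiregulin (Areg), epiregulin (Ereg), betacellulin (Btc), heparin-binding EGF-like growth factor (Hbegf), transforming growth factor alpha (Tgfa) and epidermal growth factor (Egf), the receptors Egfr and Erbb3, and hepatocyte growth factor (Hgf) with its receptor Met were followed across 32 mouse livers. The 10 genes were found by symbol among the non-control probes of one-colour Agilent arrays, where 12 probes on 48 spots carried them, of 34779 genes, 55681 probes and 59305 spots in all. Egfr had 3 probes and each of the other genes had 1.

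The animals were male C57/BL6 mice, with 4 livers in each of 8 groups. At baseline, mice ate a standard diet or a methionine- and choline-deficient (MCD) diet for 3 weeks, and a further group on each diet received a dual agonist of the GLP-1 receptor (GLP1R) and the glucagon receptor (GCGR) at 4.4 mg/kg/day on alternate days over 2 weeks, begun on the MCD diet after the first week. The same 4 regimens, given both before and after surgery, were also sampled 2 weeks after a hepatectomy that took away 70% of the organ. The MCD diet is a dietary model of steatohepatitis, and the labels say only dual agonist, with no further description of the compound. All groups share strain and sex, whole liver was extracted, and a lower signal can therefore mean fewer cells of a type or less RNA per cell, which cannot be told apart.

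The EGF-family ligands are made as membrane-anchored precursors that proteases shed from the cell surface. Areg, Tgfa and Egf bind Egfr, Btc, Ereg and Hbegf bind Egfr and Erbb4, and Erbb3, whose kinase is impaired, signals as a partner of other family members after binding neuregulins. Hgf is secreted as an inactive single chain, is made in liver mainly by stellate and endothelial cells, and acts on Met in hepatocytes. Both pathways are known for driving hepatocyte proliferation after partial hepatectomy.

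The probes decide what each value can show, so the sequences behind the 2 results that turn on them, Areg and the difference between Egfr probes, are given first. The Areg probe lies at mm9 chr5:91570090-91570149 on the plus strand. The upstream probe to Egfr transcript variant 2 lies at mm9 chr11:16783556-16783615 and the downstream one at chr11:16787172-16787231, both on the plus strand. The Egfr probe annotated to transcript variant 1 lies at chr11:16813815-16813874, 26.6 kb farther along the gene, and its first 30 bases are shown. Capitals mark a TAA stop codon that closes frame 1, counted from the first base of the downstream variant 2 probe.
Areg: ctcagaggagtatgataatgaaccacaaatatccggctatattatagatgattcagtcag
Egfr variant 2, upstream: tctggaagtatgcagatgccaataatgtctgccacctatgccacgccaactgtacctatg
Egfr variant 2, downstream: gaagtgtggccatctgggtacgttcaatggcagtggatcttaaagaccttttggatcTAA
Egfr variant 1: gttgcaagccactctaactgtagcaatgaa

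The variant names are those of the array's annotation, and whether a probe also matches the other transcript was not looked up. Variant 2 of mouse Egfr is a shorter transcript whose product lacks the kinase part. The Ereg and Areg probes lay 47.5 kb apart on chromosome 5, and the Btc probe 216.9 kb beyond Areg, so that 3 of the 6 EGF-family ligands are neighbours. Exon, intron and UTR positions of the probes were not looked up.

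Because Areg differed between the diets both before and after hepatectomy, its promoter is shown for context. RefSeq promoter windows of GRCm38.p6 were searched for 7 of the 10 genes. Ereg and Erbb3 had no window there, and Hbegf was left out of the search. The 250 bases before each start site were searched on both strands. The motifs were a full cAMP response element (TGACGTCA), an AP-1 site (TGANTCA) and a TATA box (TATAAA), which do not overlap one another here. The Areg window, chr5:91139349-91139598 on the plus strand, holds the cAMP response element at -61 to -54 and the TATA box at -31 to -26, both in capitals.
Areg promoter: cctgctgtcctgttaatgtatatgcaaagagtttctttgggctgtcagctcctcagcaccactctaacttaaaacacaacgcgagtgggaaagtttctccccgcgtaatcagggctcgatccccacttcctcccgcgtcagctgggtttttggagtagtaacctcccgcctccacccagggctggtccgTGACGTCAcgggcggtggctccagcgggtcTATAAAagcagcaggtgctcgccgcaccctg

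Of 32851 promoters of the same length, 1.55% held TGACGTCA, 6.75% TGANTCA and 12.4% TATAAA. Among the genes searched the AP-1 letters were found in Met alone, at -54 to -48, and the cAMP response element and TATA box in Areg alone. A match of letters is a description of the window and not a measured binding site.

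Values are log2 of the scanner's background-subtracted signal minus the 75th percentile of each array, so 0 is the brightness that 3 in 4 spots fall short of, and a step of 1 is a doubling. Levels are compared only within a probe. A gene entered the tests if some group had its probe well above background in each of the 4 livers, which left 21708 genes and all 10 of those described here. One limma model over the 8 groups gave 12 comparisons between 2 groups and 2 diet-by-agonist interactions, and a change was called at a Benjamini-Hochberg adjusted p under 0.05 over all tested genes.

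Arrays had 44.4% to 69.7% of spots well above background, with at most 2 saturated. The 4 slides held 2 groups each. At baseline the 2 untreated groups shared a slide, as did the 2 agonist-treated groups. After hepatectomy each slide held an untreated and an agonist-treated group of 1 diet. In every other comparison of 2 groups the slide cannot be told apart from the group, and hepatectomy is also tied to a change of scanner. Slide differences also remain in the contrasts of hepatectomy responses between diets and of agonist differences before and after hepatectomy.

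The submitters' processed log2 table goes against the labels. Over the spots, all 32 of its columns correlated best with a scanner array of the same replicate number (rank r 0.994 to 0.998), but 16 matched another group's array, with MCD diet and standard diet with agonist exchanged both before and after hepatectomy. Against the array of their own label these 16 columns reached r of 0.871 to 0.941. Groups were here taken from the labels and each sample's own scanner file. Read as deposited, the table would move the Areg rise described next from the MCD diet to the agonist on standard diet, with a log2 difference of 1.13 at baseline (adjusted p = 3.888e-05) and 0.99 after hepatectomy (adjusted p = 0.0003351).

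A pair of livers after hepatectomy also stood apart from their groups, replicate 1 on standard diet and replicate 4 on standard diet with agonist. Their deviations from the group means correlated at r = 0.65 over 21708 genes, against 0.44 for the next pair of arrays. Summed recruited-macrophage markers were 200.7 in the first, against 18.55 to 28.44 in the other 3 livers of its group, and 114 in the second, against 21.83 to 25.34. Summed cholangiocyte markers were likewise 56.21 against 5.31 to 9.034, and 35.04 against 4.798 to 6.5 (linear signal in units of the 75th percentile). Both lists hold the gene Spp1, so the sums are not independent, and its share of them was not tested. Results that rest on these livers are given with and without both.

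The MCD diet at baseline changed 6 of the 10 genes, 3 upward and 3 downward, where 26.0% of all genes changed, 10.7% upward and 15.3% downward. Areg, Btc and Egf rose and Egfr, Erbb3 and Met fell, so the calls upward were ligands and the calls downward were receptors. The median log2 difference of the 10 genes was 0.55, beside -0.13 over all genes. That split of ligands and receptors depends on the background treatment. With normexp correction the calls of Btc, Egf and Egfr were lost, and the ligand Tgfa was called downward (-0.47, adjusted p = 0.04098). With the agonist in both diet groups, Egf rose and Tgfa, Egfr and Hgf fell (4 of 10, against 15.2% of all genes, 8.10% upward and 7.06% downward). The split of all genes depends on scaling: of the genes called on the MCD diet at baseline 41.1% were higher, and 78.3% with median scaling.

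The agonist changed Met alone on standard diet at baseline, downward (1 of 10, against 6.51% of all genes, 3.31% upward and 3.21% downward). For the MCD diet it changed 3 of 10, with Areg and Hgf lower and Met higher, against 13.3% of all genes, 8.88% upward and 4.39% downward. Of all genes called there 66.9% were higher, and 16.9% with median scaling. Areg, Hgf and Met also passed the diet-by-agonist interaction at baseline (3 of 10, against 11.1%), Met upward, where 6.15% of all genes passed upward, and the other 2 downward, where 4.93% did.

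After hepatectomy Areg alone passed in the diet comparison, upward, both without agonist (1 of 10, against 11.5% of all genes, 5.52% upward and 5.99% downward) and with it (1 of 10, against 8.22%, 4.32% upward and 3.90% downward). The agonist changed 0 of 10 genes there in the limma fit on either diet. Of all genes 0.00921% changed on standard diet, all of them upward with 0 downward, and 0.405% on the MCD diet, 0.184% upward and 0.221% downward. Of the 10 genes, 0 and 2 had an unadjusted p under 0.05. The interaction after hepatectomy called 0 of 10 genes, against 0.00461%, all downward, with 1 at an unadjusted p under 0.05.

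Between baseline and 2 weeks after hepatectomy, Tgfa and Erbb3 fell on standard diet (2 of 10, against 13.8% of all genes, 6.32% upward and 7.44% downward) and also with the agonist (2 of 10, against 7.33%, 2.94% upward and 4.39% downward). Met rose and Egf fell on the MCD diet (2 of 10, against 9.46%, 6.46% upward and 2.99% downward). With the MCD diet and agonist together Areg and Hgf rose (2 of 10 upward, against 3.74% of all genes, and 0 downward, against 6.30%). A further contrast, of the agonist difference on the MCD diet before and after hepatectomy, called 0 of 10 genes, against 1.11%.

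Groups without any overlap between arrays were found, for the diet at baseline, in 6 of 10 genes without agonist (27.9% of all genes) and 4 with it (14.2%), and after hepatectomy in 2 (16.9%) and 2 (20.3%). For the agonist they were found in 1 gene on standard diet (11.3%) and 4 on the MCD diet (18.4%) at baseline, and in 0 (2.81%) and 4 (10.2%) after hepatectomy. For hepatectomy they were found in 2 genes on standard diet (17.5%), 4 with agonist (18.2%), 4 on the MCD diet (19.0%) and 1 with agonist (16.3%). The comparisons share control groups, and their values are set side by side without a test of overlap.

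**Figure D1:**
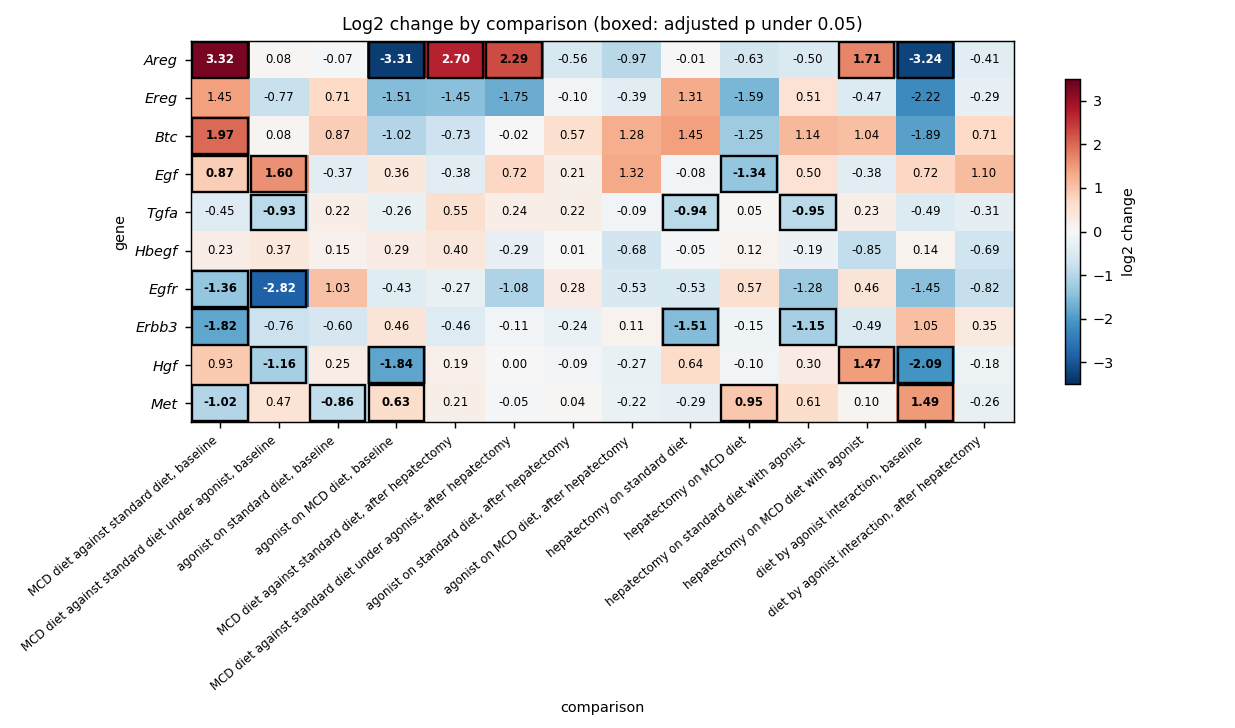
Log2 difference between group means for each of the 10 genes (rows) in each comparison of 2 groups (columns), with the comparisons that passed the adjusted p threshold marked. In the Areg row the difference of 3.32 on the MCD diet at baseline is a fitted value against a group with no array above background. The fold between the means is at least 6.08 with this background treatment, and the log2 difference is 0.75 with normexp correction. The agonist columns after hepatectomy hold none that passed.

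Areg, a ligand that injured epithelium makes and that binds Egfr, was near background in most livers. It was well above background on 11 of 32 arrays, all of them on the MCD diet. Areg entered the tests only through the untreated MCD groups, at baseline and after hepatectomy. Comparisons with those groups are therefore not independent of the entry rule. At baseline the log2 level of Areg was -2.98, -0.98, -2.47 and -1.90 in the 4 livers on the MCD diet, against -4.46, -6.80, -5.58 and -4.78 on standard diet. The groups did not overlap, and none of the standard diet arrays was well above background. By group means Areg was at least 6.08-fold higher on the MCD diet (fitted log2 difference 3.32 ± 0.51 SE, adjusted p = 3.832e-05). For each dim array this takes the lowest signal of any probe that counted as above background, or the Areg probe's own where that was higher. Folds given as at least are between group means and take no account of their spread. They hold for this background treatment only, and the difference was smaller with normexp correction, described below.

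In the agonist-treated baseline livers Areg was -4.95, -4.89, -6.60 and -5.45 on standard diet and -6.44, -5.18, -6.04 and -3.91 on the MCD diet. All 8 lay below the untreated MCD livers, and none was well above background. Against the untreated MCD group, Areg with the agonist was at least 5.41-fold lower (-3.31 ± 0.51, adjusted p = 0.000639). The diet difference shrank by 3.24 ± 0.72 in the presence of the agonist (interaction, adjusted p = 0.00525), a fitted value that includes 3 groups without an array above background.

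After hepatectomy Areg was -2.82, -2.47, -3.08 and -2.47 on the MCD diet and -4.90, -4.97, -6.03 and -5.75 on standard diet, again with no overlap. It was at least 3.65-fold higher on the MCD diet (2.70 ± 0.51, adjusted p = 0.0008764; 2.88 without both livers that stood apart). With the agonist, Areg was -4.36, -3.14, -3.42 and -3.80 on the MCD diet and -5.77, -6.12, -6.71 and -5.30 on standard diet. The MCD livers were higher by at least 1.71-fold, with 3 of 4 above background (2.29 ± 0.51, adjusted p = 0.004701; 2.52 without both).

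The 4 agonist-treated MCD livers after hepatectomy lay below their untreated counterparts without overlap, but the difference of -0.97 ± 0.51 did not pass (adjusted p = 0.4123). Set against agonist-treated MCD livers at baseline they were at least 1.79-fold higher, with arrays that overlapped (1.71 ± 0.51, adjusted p = 0.03255), a call that ended without any of 5 of the 8 arrays (agonist-treated MCD replicates 1 and 3 at baseline and 2, 3 and 4 after hepatectomy; adjusted p up to 0.1147). A direct test of whether the agonist difference on the MCD diet changed with hepatectomy gave 2.34 ± 0.72 and did not pass (adjusted p = 0.09612).

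The size of these differences depends on how the background was treated. With normexp correction of the raw signal, which compresses dim values, the Areg difference between diets at baseline was 0.75 (adjusted p = 0.02784), the agonist difference on the MCD diet -0.87 (adjusted p = 0.01542), the interaction -0.74 (adjusted p = 0.1569) and the diet difference with agonist after hepatectomy 0.43 (adjusted p = 0.3387). The rise of Areg with hepatectomy on the MCD diet with agonist did not stand there, at -0.10.

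Macrophage markers are given beside Areg. Counts of markers here and below stand beside the shares of all genes given above for each comparison. Of 11 tested recruited-macrophage markers, 7 rose and 1 fell on the MCD diet at baseline, and 0 rose or fell with the agonist on that diet. Their summed level was 13.42 to 22.36 on standard diet, 32.75 to 69.35 on the MCD diet and 15.97 to 41.56 on the MCD diet with agonist. Of 9 tested Kupffer cell markers, 6 rose on the MCD diet, 6 fell with the agonist on the MCD diet and 5 rose with the agonist on standard diet, where Areg was not above background on any array of either group. Their part in the Areg result was not tested.

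**Figure D2:**
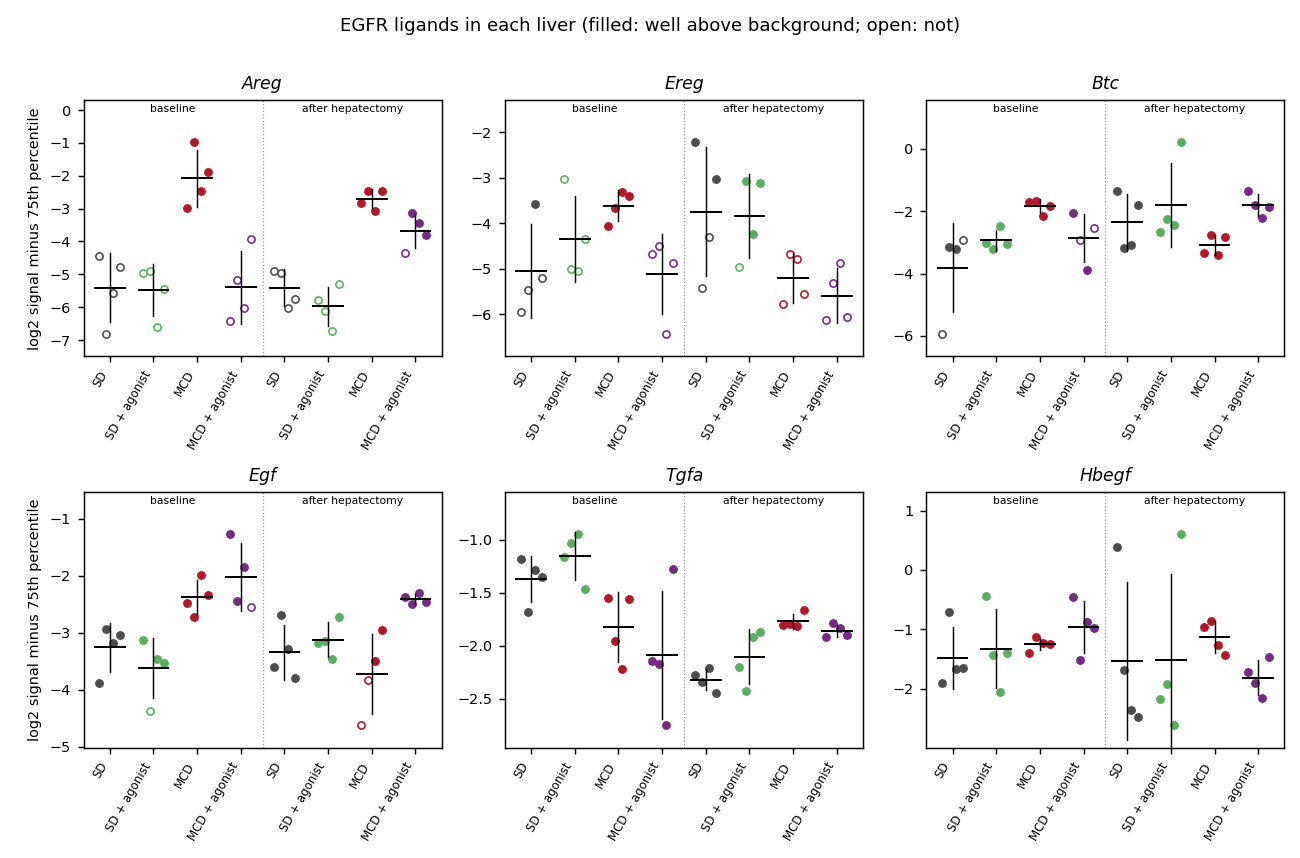
Log2 signal minus the array's 75th percentile (vertical axis) for the 6 EGF-family ligands in each of 32 livers (points), by group, with group means (horizontal bars) and SD (vertical bars, n = 4). Filled points were well above background and open points were not. Areg is filled only in groups on the MCD diet.

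Ereg, a ligand of the same chromosome 5 neighbourhood, was well above background on 10 of 32 arrays and entered the tests through a single group. In that group, untreated MCD livers at baseline, it was -4.06, -3.66, -3.31 and -3.40. On standard diet it was -5.96, -5.48, -3.58 and -5.19, with 1 of 4 arrays above background and overlapping groups. The difference of 1.45 ± 0.59 missed the threshold (adjusted p = 0.0687).

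With the agonist on the MCD diet Ereg was -4.68, -4.51, -6.42 and -4.87, none above background and all below the untreated MCD livers by at least 1.86-fold between the means. The fitted difference of -1.51 ± 0.59 also missed the threshold (adjusted p = 0.08319). After hepatectomy it was above background on 2 of 4 standard diet arrays and on 3 of 4 with agonist, and on none of the 8 MCD diet arrays. Ereg was called in none of the 14 tests, but the baseline results depend on the scaling. For the MCD diet Ereg passed with median scaling (1.81, adjusted p = 0.02458), with quantile normalization (1.96, adjusted p = 0.02254) and in a fit of those groups alone (adjusted p = 0.04074). The agonist difference on the MCD diet passed under the same 3 settings (adjusted p = 0.03852, 0.02291 and 0.04158). Across all alternatives, the deposited table among them, the diet difference ran from -0.05 to 1.96 (adjusted p up to 0.8833). The agonist difference ran from -2.23 to -0.02 (adjusted p up to 0.9616). Ereg entered the tests only through untreated MCD livers at baseline, where its mean was highest. Comparisons with that group are therefore not independent of the entry rule.

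Btc, a ligand of Egfr and Erbb4, was -1.70, -1.67, -2.14 and -1.82 in the baseline MCD livers and -5.92, -3.16, -3.21 and -2.92 on standard diet. The groups did not overlap, and Btc rose 3.93-fold (1.97 ± 0.56, adjusted p = 0.01006). Replicate 1 on standard diet, at -5.92, carried part of the difference, which was 1.27 without it (adjusted p = 0.06957), and the call also ended with normexp correction, at 0.66 (adjusted p = 0.09053).

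With the agonist on the MCD diet Btc spread from -3.88 to -2.05 (difference -1.02 ± 0.56, adjusted p = 0.2248). After hepatectomy the MCD livers lay at -3.34, -2.76, -3.39 and -2.84, all below the baseline MCD livers (-1.25 ± 0.56, adjusted p = 0.1614). The difference between the diets' hepatectomy responses, -2.70 ± 0.79, was just outside the threshold (adjusted p = 0.05594). The highest Btc signal of the series, 0.21, was in the agonist-treated standard diet liver that stood apart after hepatectomy.

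Hbegf, an Egfr ligand that stress and wounding induce early in many tissues, could be measured above background in all 32 livers and was called in none of the 14 tests. Its group means spread from -1.81 ± 0.29 (SD, n = 4) in agonist-treated MCD livers after hepatectomy to -0.96 ± 0.44 in agonist-treated MCD livers at baseline. The 2 livers that stood apart had the highest values, 0.39 and 0.61, while the other 3 in each of their groups lay between -2.61 and -1.68. Without both, Hbegf was higher on the MCD diet than on standard diet after hepatectomy by 1.04 (adjusted p = 0.02717), in place of 0.40 ± 0.52 with them.

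Tgfa, a hepatocyte-made ligand, had 10 spots per array and the narrowest range of the ligands, -2.75 to -0.94. It was -1.18, -1.68, -1.28 and -1.35 on standard diet at baseline and -2.27, -2.34, -2.21 and -2.45 after hepatectomy, with no overlap. Tgfa fell 1.92-fold with hepatectomy (-0.94 ± 0.22, adjusted p = 0.006007). With the agonist it was -1.17, -1.03, -0.94 and -1.46 at baseline and -2.20, -2.43, -1.91 and -1.87 after hepatectomy, and fell 1.93-fold (-0.95 ± 0.22, adjusted p = 0.01097). Both falls were called in every alternative setting tried. For changes between baseline and hepatectomy these did not include the deposited table or the slide as a block.

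Within the MCD diet Tgfa differed little between baseline and hepatectomy, by 0.05 ± 0.22 without and 0.23 ± 0.22 with agonist, and the difference between the diets' responses, 0.99 ± 0.31, missed the threshold (adjusted p = 0.07733). In agonist-treated baseline livers Tgfa was lower on the MCD diet, at -2.14, -2.17, -2.75 and -1.28, than on standard diet (-0.93 ± 0.22, adjusted p = 0.004557). Replicate 4 of that MCD group overlapped the standard diet livers, and the call ended with normexp correction (-0.52, adjusted p = 0.0722) and in the fit of those groups alone (adjusted p = 0.1244).

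Egf, the founding ligand of the family, had 10 spots per array and was above background on 28 of 32. At baseline it was -2.48, -2.73, -1.99 and -2.33 on the MCD diet and -3.89, -2.93, -3.18 and -3.03 on standard diet, without overlap, a rise of 1.83-fold (0.87 ± 0.32, adjusted p = 0.04653). This call was lost without any of 6 of the 8 arrays (standard diet replicates 1, 3 and 4 and MCD replicates 1, 3 and 4; adjusted p up to 0.164) and in 4 other settings, 1 of them the deposited table. With agonist in both groups, Egf was -1.27, -2.44, -1.84 and -2.54 on the MCD diet and -3.13, -4.37, -3.46 and -3.52 on standard diet, and rose 3.03-fold (1.60 ± 0.32, adjusted p = 0.00117), with 3 of 4 arrays of each group above background.

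After hepatectomy the untreated MCD livers had Egf at -4.62, -3.82, -3.50 and -2.95, all below the baseline MCD livers, and 2 of 4 were above background (-1.34 ± 0.32, adjusted p = 0.008272). The agonist-treated MCD livers were tightly grouped at -2.38, -2.49, -2.30 and -2.45. They lay above the untreated MCD livers without overlap, by 1.32 ± 0.32, which missed the threshold (adjusted p = 0.06247) and passed without replicate 4 of the untreated group, at 1.57 (adjusted p = 0.0156). Pancreatic acinar markers in that group had a summed level of 9.452 to 35.47 against 5.808 to 12.72 in untreated MCD livers after hepatectomy, and 1 of 11 tested passed, Try4. Their part in the Egf values was not tested.

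Egfr, the receptor of all 6 ligands, was measured above background in every liver with each of its 3 probes. The probe to variant 1, used for the gene because it was the brightest of the 3 on average, read 4.37, 6.15, 6.22 and 6.03 on standard diet at baseline and 3.55, 4.10, 4.83 and 4.86 on the MCD diet. The groups overlapped through replicate 1 on standard diet, and Egfr fell 2.57-fold (-1.36 ± 0.49, adjusted p = 0.03815). The call was lost without any of 5 of the 8 arrays (standard diet replicates 2, 3 and 4 and MCD replicates 1 and 2; adjusted p up to 0.1254) and in 6 other settings, 2 of them readings of the deposited table and median scaling among them (-0.997, adjusted p = 0.1286).

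The probes to variant 2 gave a wider difference. The upstream one read 5.01, 5.21, 6.37 and 5.54 on standard diet and 2.63, 1.94, 3.00 and 1.64 on the MCD diet, and fell by 3.23 ± 0.50 (adjusted p = 4.495e-05). The downstream one read 5.59, 5.80, 6.06 and 5.10 against 2.60, 1.93, 2.78 and 1.98, and fell by 3.31 ± 0.51 (adjusted p = 4.715e-05). Neither overlapped between the diets.

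In each liver the mean of the probes annotated to variant 2 was set against the probe annotated to variant 1. This compares probes and not transcripts, because a match of each probe to the other transcript was not looked up. The variant 2 probes minus the variant 1 probe gave -2.02 ± 0.87 on the MCD diet and -0.11 ± 0.76 on standard diet. The difference was -1.91 (exact permutation test, two-sided, p = 0.02857, and 0.1143 after adjustment over the 12 comparisons). That exact p is the smallest that 4 against 4 allows. The same exact p was reached by the agonist on standard diet at baseline (-1.07) and by the MCD diet after hepatectomy (-1.08). None of the 12 passed the adjustment; the comparison was chosen after the values had been seen.

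With agonist in both groups at baseline, the variant 1 probe read 7.24, 6.54, 7.06 and 6.05 on standard diet and 4.33, 3.71, 4.41 and 3.17 on the MCD diet. Egfr fell 7.05-fold with no overlap (-2.82 ± 0.49, adjusted p = 0.0002289), and the variant 2 probes fell by 2.39 and 2.47. Within the MCD diet the agonist difference was -0.43 ± 0.49 with the variant 1 probe and 1.05 ± 0.50 and 0.55 ± 0.51 with the variant 2 probes. None of them passed the threshold.

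After hepatectomy the variant 1 probe read 3.42, 5.87, 5.62 and 5.75 on standard diet and 5.94, 5.68, 6.01 and 4.16 with agonist. The low value in each group was the liver that stood apart. The MCD livers read 4.95, 5.12, 4.72 and 4.81, and with agonist 5.03, 4.09, 3.83 and 4.50. The diet difference under agonist, -1.08 ± 0.49, did not pass (adjusted p = 0.1771) and was -1.51 without both livers (adjusted p = 0.01294). The variant 2 probes fell there with all livers in, by 1.61 and 1.64 (adjusted p = 0.04268 and 0.04385).

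**Figure D3:**
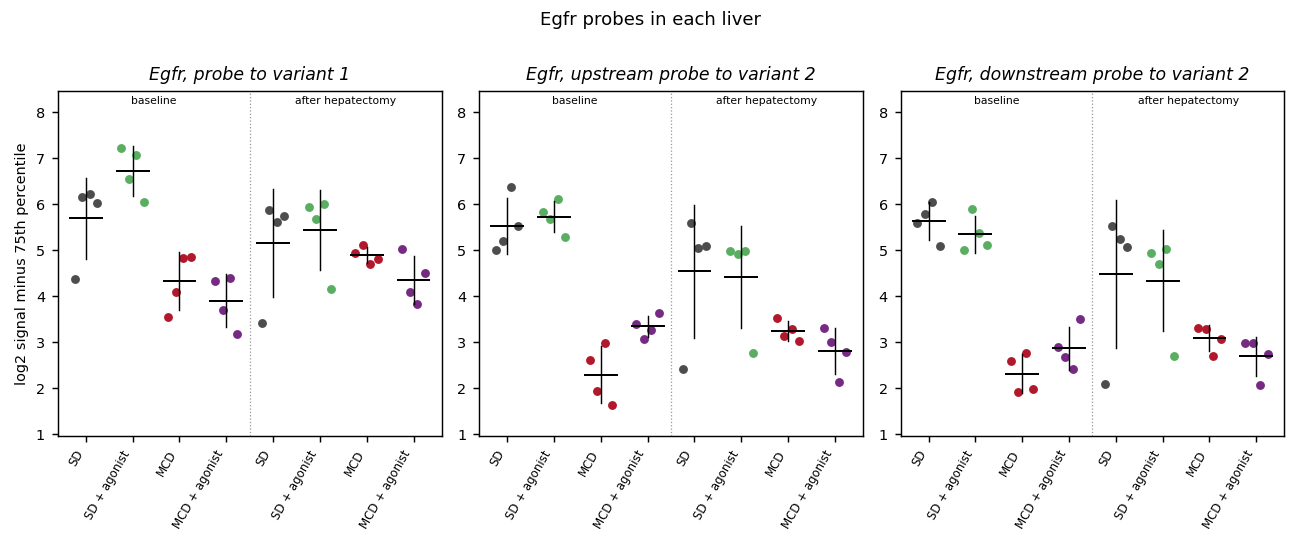
Log2 signal minus the array's 75th percentile (vertical axis, same range in each panel) for the 3 Egfr probes in each liver (points), with group means and SD (bars, n = 4). Between standard and MCD diet at baseline the mean difference is -1.36 with the variant 1 probe and -3.23 and -3.31 with the variant 2 probes.

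Erbb3, the kinase-impaired receptor for neuregulins, was 0.41, -0.94, -0.51 and -0.47 on standard diet at baseline and -1.49, -2.36, -2.54 and -2.38 on the MCD diet. The groups did not overlap and Erbb3 fell 3.52-fold (-1.82 ± 0.28, adjusted p = 3.373e-05). After hepatectomy it was -2.39, -2.10, -1.36 and -1.69 on standard diet, below every baseline standard diet liver, a fall of 2.85-fold (-1.51 ± 0.28, adjusted p = 0.0008859; -1.34 without both livers that stood apart).

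With agonist on standard diet Erbb3 lay between -1.26 and -0.76 at baseline and -2.10, -2.21, -2.14 and -2.04 after hepatectomy, and fell 2.22-fold (-1.15 ± 0.28, adjusted p = 0.01237). The MCD livers were already low: their hepatectomy differences were -0.15 ± 0.28 without and -0.49 ± 0.28 with agonist, and neither passed. The difference between the diets' hepatectomy responses was 1.36 ± 0.39 (adjusted p = 0.05429). In the order of group means, the 2 baseline standard diet groups (-0.38 ± 0.57 and, with agonist, -0.97 ± 0.22) overlapped each other and lay above the next group without overlap.

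Hepatocyte markers are given beside the receptors. For the MCD diet at baseline 2 of 12 fell, Apoa1 and Apoa2, with a summed level of 5257 to 6330 against 7489 to 9841 on standard diet. With hepatectomy on standard diet 2 of 12 fell (1 without both livers that stood apart), and the summed level was 4216 to 7310. All 12 were well above background on every array of these 3 groups. Their part in the Egfr, Erbb3 and Met results was not tested.

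Erbb2, the partner without a ligand of its own, passed in none of the 14 tests, with group means from -2.91 ± 0.18 to -2.29 ± 0.26. Erbb4, a neuregulin and betacellulin receptor, fell with the agonist on standard diet at baseline (-1.41 ± 0.36, adjusted p = 0.01957) and was higher on the MCD diet under agonist (1.52 ± 0.36, adjusted p = 0.004312).

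Hgf at baseline was -2.75, -2.14, -2.36 and -1.99 on standard diet and -1.15, -1.47, -1.52 and -1.40 on the MCD diet, without overlap. The difference of 0.93 ± 0.37 missed the threshold (adjusted p = 0.06209) and passed with median scaling (1.29, adjusted p = 0.009736) and quantile normalization (1.06, adjusted p = 0.03222). Across all alternatives, the deposited table among them, this difference ran from -0.03 to 1.29 (adjusted p up to 0.96). With the agonist on the MCD diet Hgf was -2.90, -2.55, -3.98 and -3.45, below every untreated MCD liver. It fell 3.57-fold (-1.84 ± 0.37, adjusted p = 0.002542), and the group mean of -3.22 ± 0.62 was the lowest of the 8. With normexp correction this agonist difference was -0.97 (adjusted p = 0.01205).

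On standard diet with agonist Hgf spread from -3.12 to -1.22, a difference of 0.25 ± 0.37 (adjusted p = 0.7412). The diet-by-agonist interaction of -2.09 ± 0.52 passed (adjusted p = 0.01097), although not with normexp correction (-0.81, adjusted p = 0.1427). Under agonist the MCD livers were lower than the standard diet livers by 1.16 on the log2 scale (-1.16 ± 0.37, adjusted p = 0.03029), with overlap, and this call ended without any of 5 of the 8 arrays (standard diet with agonist replicates 1, 2 and 4 and MCD with agonist replicates 3 and 4).

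After hepatectomy the 4 groups lay together. Hgf was -2.33, -1.90, -1.96 and -0.83 in the agonist-treated MCD livers, above all baseline livers with that regimen, a rise of 2.76-fold (1.47 ± 0.37, adjusted p = 0.01255). That call ended without replicate 4 after hepatectomy (1.16, adjusted p = 0.06243) or replicate 3 at baseline (1.21, adjusted p = 0.05103). The other 3 group means after hepatectomy were between -1.76 ± 0.48 and -1.49 ± 0.41.

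Stellate cell markers are given beside Hgf. Of 14 tested, 6 rose on the MCD diet at baseline, Pdgfra, Lrat, Lum and Dcn among them, where 10.7% of all genes rose. With the agonist on that diet 4 of 14 fell, Col3a1, Dcn, Hand2 and Lrat, where 4.39% of all genes fell. The summed level of the 14 was 85.16 to 131.1 on standard diet, 226.6 to 434.2 on the MCD diet and 82.96 to 184.9 on the MCD diet with agonist. With hepatectomy on the MCD diet with agonist 1 of 14 rose, Col3a1, where 3.74% of all genes rose. Their part in the Hgf result was not tested.

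Met, the Hgf receptor, had 10 spots per array and was well above background in every liver. It was 0.76, 1.00, 0.03 and 0.47 on standard diet at baseline, -0.33, -0.51, -0.43 and -0.56 on the MCD diet, -0.41, -0.11, -0.35 and -0.32 on standard diet with agonist, and 0.02, 0.14, 0.60 and -0.08 on the MCD diet with agonist. Untreated MCD and agonist-treated standard diet livers overlapped each other and lay below both other groups.

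Met fell 2.03-fold with the MCD diet (-1.02 ± 0.21, adjusted p = 0.0008294) and 1.82-fold with the agonist on standard diet (-0.86 ± 0.21, adjusted p = 0.01572). Within the MCD diet Met was 1.55-fold higher with the agonist (0.63 ± 0.21, adjusted p = 0.04524). The interaction was 1.49 ± 0.30 (adjusted p = 0.00244), and 0.96 with median scaling (adjusted p = 0.05103). The higher level on the MCD diet with agonist lost its call without any of 7 of the 8 arrays, all but agonist replicate 4, and in 7 other settings, and was 0.28 with median scaling (adjusted p = 0.462). The fall on standard diet was lost with median scaling (-0.68, adjusted p = 0.07628), in the fit of those groups alone (adjusted p = 0.1466), and without standard diet replicate 2 or agonist replicate 1.

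After hepatectomy Met was between -0.29 and 0.60 in all 16 livers, and the 4 groups overlapped. The MCD livers read 0.37, 0.60, 0.48 and 0.52, above every baseline MCD liver, a rise of 1.93-fold (0.95 ± 0.21, adjusted p = 0.004262). On standard diet the hepatectomy difference was -0.29 ± 0.21 (adjusted p = 0.3756), and the diets' responses differed by 1.24 ± 0.30 (adjusted p = 0.02611), the only one of the 10 genes to pass in that test, where 2.60% of all genes did. The contrast was added after the values had been seen. With agonist on standard diet the hepatectomy difference was 0.61 ± 0.21 (adjusted p = 0.0707) and 0.71 without both livers that stood apart (adjusted p = 0.04889).

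**Figure D4:**
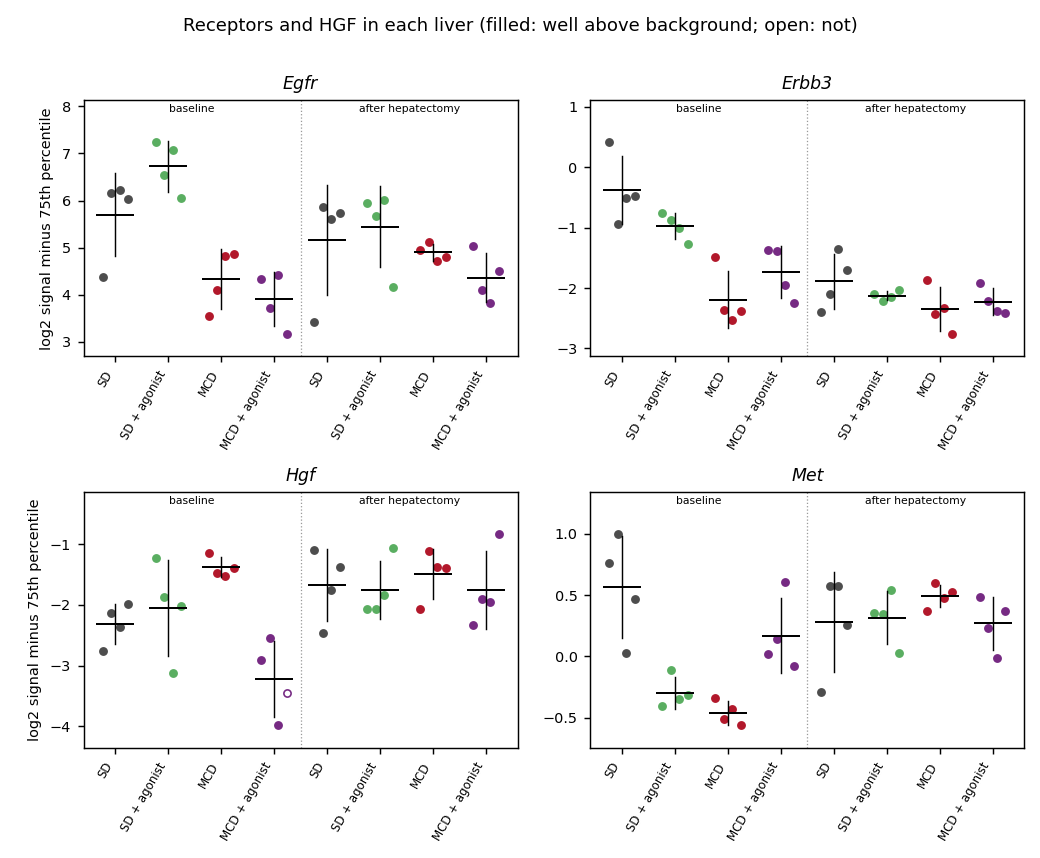
Log2 signal minus the array's 75th percentile (vertical axis) for Egfr (variant 1 probe), Erbb3, Hgf and Met in each liver (points), by group, with group means and SD (bars, n = 4). Filled points were well above background. At baseline Erbb3 is highest on standard diet, Hgf is lowest in the agonist-treated MCD livers, and Met is lower in untreated MCD and agonist-treated standard diet livers than in the other 2 groups.

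The rest of the pathway was read from lists of related genes, of which 99 were tested. Their counts stand beside the shares of all genes given above, for the MCD diet at baseline 10.7% upward and 15.3% downward. Among 7 tested ErbB and MET family members other than the 10 genes, Nrg1 and Nrg4 rose on the MCD diet at baseline (4.28 ± 0.70 and 2.36 ± 0.65). Nrg1 is a ligand of Erbb3 and Erbb4, and Nrg4 of Erbb4. Epgn, a further Egfr ligand, was at least 1.77-fold lower on the MCD diet at baseline. With the agonist on the MCD diet Nrg1 fell (-2.38 ± 0.70) and Epgn was at least 3.56-fold higher. After hepatectomy Nrg1, Nrg4 and Mst1r, the receptor related to Met, rose on the MCD diet (2.23 ± 0.70, 2.58 ± 0.65 and 1.64 ± 0.39; 3.07, 2.91 and 1.88 without both livers that stood apart).

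Of 9 tested shedding genes, Nrd1 and Rhbdf1, cofactors of ligand shedding, rose and the protease Adam12 fell on the MCD diet at baseline. Rhbdf1 rose by 1.52 ± 0.41 and fell with the agonist on the MCD diet by 1.45 on the log2 scale (-1.45 ± 0.41, adjusted p = 0.02025). Adam17, the main sheddase of Areg and Tgfa, passed in no test, with SDs of up to 1.45 in a group.

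Of 11 tested genes around pro-HGF activation, Plaur, the urokinase receptor, rose on the MCD diet at baseline and Klkb1, Spint2 and Hpn fell. Hpn encodes hepsin, an activator of pro-HGF, and Spint2 an inhibitor of such proteases. Hgfac, the secreted activator of pro-HGF, fell with hepatectomy on standard diet (-1.08 ± 0.31, adjusted p = 0.02226; -0.75 and adjusted p = 0.114 without both livers that stood apart) and on the MCD diet with agonist (-1.33 ± 0.31, adjusted p = 0.008446).

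Of 17 tested feedback inhibitors, 3 rose (Spry1, Dusp6 and Spred1) and 2 fell on the MCD diet at baseline, Lrig2 among them, numbers close to those shares of all genes. Under agonist 4 were lower on the MCD diet (Lrig1, Cbl, Spred1 and Errfi1) and Dusp4 was higher. Errfi1, an Egfr inhibitor, differed by -1.13 ± 0.31 there (adjusted p = 0.01319). Of 29 tested adaptors and kinases, 4 fell on the MCD diet at baseline, Mapk3, Grb10, Map2k2 and Shc1, and 0 rose, and the falls were no more frequent than the 15.3% over all genes.

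Genes that respond to ERK, the kinase below both receptor families, went both ways on the MCD diet at baseline, with 4 of 14 higher and 3 lower. Ccnd1 (3.18 ± 0.48), Klf6 and Myc rose and Phlda1 (-2.33 ± 0.46) fell. With the agonist on that diet 4 of 14 fell, Fos, Fosl2, Myc and Maff, and 0 rose. With hepatectomy on standard diet Phlda1, Fos, Ier2 and Egr1 fell, and without both livers that stood apart Fos was the 1 of 14 that fell (-2.58 ± 0.62, adjusted p = 0.01228).

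Proliferation genes moved 1 way in each of these comparisons. On the MCD diet at baseline 11 of 12 rose, with a median log2 difference of 2.29 beside -0.13 over all genes, and with the agonist on that diet 7 of 12 fell, with a median of -2.02 beside 0.14. With hepatectomy on standard diet 10 of 12 rose (median 1.79, beside -0.07). Without both livers that stood apart 3 of 12 rose there, Top2a, Ccnb2 and Mcm6 (median 1.34, beside -0.01).

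Each gene was also set against 14085 named genes for the most similar pattern, by Pearson correlation. Over the 32 livers, Areg was closest to Sema3b (r = 0.85), Gbp5 (0.825) and Vmn2r5 (0.822), Egfr to Ablim3 (0.867), Ugt2b37 (0.852) and Hao1 (0.844), and Erbb3 to Zfp422 (0.854), Rnf5 (0.845) and Lgals9 (0.833). Hgf was closest to Art4 (0.839) and Met to Baiap2l2 (0.758). Among the ligands, Egf was closest to Pdss1 (0.837), Hbegf to Mfge8 (0.808), Btc to Me2 (0.776), Ereg to Tmem45a (0.764) and Tgfa to Rapgef4 (0.737). Over the 8 group means Ablim3 was again closest to Egfr (0.991). The livers share groups, slides and scanners, and the correlations are descriptions.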

How the data were processed

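RNA from the 32 livers (Trizol, then RNeasy) was labelled with Cy3, per the labels' protocols. The deposited scanner files hold spot intensity, linear and background-subtracted by the authors' Feature Extraction 10.7.3.1, per the file headers. The authors' deposited table holds log2 values, judged by their range, with column medians of 6.48 at baseline and 6.95 to 6.96 after hepatectomy. Its direction follows from the scanner files, while its centring stays unknown. The submitters' processing notes name limma without a version.

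Outlier spots (5010, 0.264%) were left out, spots were averaged per probe, and log2 signal was centred on each array's 75th percentile. A gene was represented by its tested probe with the highest mean, and tested with limma 3.58.1 in R 4.3.3 as 1 fit of 8 groups. Symbols were updated through RefSeq accessions and synonyms (GRCm38.p6, names only) for 31161 probes by accession, 3502 by symbol and 321 by synonym, with 24321 kept as in the files. Precision rests on 4 livers a group. Named pathway and marker genes are the 4 with the smallest adjusted p per list among those called, plus Erbb2, Erbb4, Hgfac, Adam17 and Errfi1 in all comparisons; members of the list of 10 genes were always named. The members, lists and tests were chosen with earlier results of these data known. Bounds on folds use the lowest signal of any probe well above background on each dim array, and the group means without their spread. The model was tested on simulated data. Alternatives were normexp (offset 50), median and quantile scaling, other filters, probes, outlier spots, groups in the fit, blocks, the deposited table and leaving out each array.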

Additional observations from a re-analysis of the deposited data

Results flagged for a closer look

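In 6 of 80 gene and group combinations the highest or lowest liver lay farther from the rest than Dixon's 95% limit for 4 values, and chance alone marks about 1 in 20. They were Tgfa at -1.66 in replicate 4 on the MCD diet after hepatectomy, where the other 3 livers lay between -1.81 and -1.79, Egfr at 4.37 in replicate 1 on standard diet at baseline, Egfr at 3.42 in replicate 1 on standard diet after hepatectomy, Erbb3 at -1.49 in replicate 1 on the MCD diet at baseline, Btc at -5.92 in replicate 1 on standard diet at baseline, and Btc at 0.21 in replicate 4 on standard diet with agonist after hepatectomy. The Egfr value of 3.42 and the Btc value of 0.21 belong to the livers with the high sums of recruited-macrophage and cholangiocyte markers, lists that share Spp1.

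Effects differed between groups in 4 tests of the difference itself. The agonist difference depended on diet at baseline for Areg (-3.24), Hgf (-2.09) and Met (1.49). The hepatectomy difference of Met depended on diet without agonist (1.24), where the diets lay on different slides after hepatectomy.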

How the results depend on the processing

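Over 567 refits of the 27 called changes, 490 kept direction and call, 73 lost the call and 4 turned sign, and 7 changes were called in all. All of these 7 but Met on the MCD diet at baseline were changes between baseline and hepatectomy. Such changes were not refitted with the deposited table, so they met fewer settings, nor with the slide as a block. Where fitted, the block could not move a result, because 2 groups per slide make it the main model again. The 490 therefore includes refits that could not differ from the main fit. Means over probes and the second probe could change the log2 difference of Egfr alone, the only one of these genes with several probes. With normexp correction 2 genes were called for MCD diet under agonist at baseline, 0 for it after hepatectomy and 1 for the baseline interaction, and Areg with hepatectomy on the MCD diet with agonist turned to -0.10. Median scaling left 0 for the agonist on standard diet at baseline. Means over probes and the second probe gave 2 for MCD diet under agonist after hepatectomy. Fitting only the groups compared gave 2 for MCD diet under agonist at baseline, 0 for the agonist on standard diet at baseline, 3 for MCD diet under agonist after hepatectomy, 4 for hepatectomy on the MCD diet and 0 with agonist. Without both livers that stood apart, 2 were called in each diet comparison after hepatectomy.

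The deposited table with columns as deposited called 1 gene for MCD diet and 2 under agonist at baseline and 5 for the agonist on standard diet, while after hepatectomy it called 0 for MCD diet and, with the agonist, 1 on standard and 2 on MCD diet. Signs turned for Areg (MCD diet under agonist -1.18, agonist on standard diet 1.13, and -0.30 and 0.99 for the same 2 after hepatectomy, with 0.64 for agonist treatment of MCD livers there), for Egf (MCD diet -0.0784, agonist on standard diet 0.45) and for Egfr (MCD diet 0.96). With columns at the arrays they match it called 2 for MCD diet under agonist and 1 for agonist treatment of MCD livers, both after hepatectomy.

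Leaving out 1 array at a time gave 4 to 5 calls for MCD diet (6 with all arrays) and 3 to 5 under agonist (4), 0 to 1 for the agonist on standard diet (1) and 2 to 3 on MCD diet (3), and 3 to 4 for the interaction (3) at baseline. After hepatectomy it gave 1 to 2 for each diet comparison (1), 0 to 0 and 0 to 1 for the agonist on standard and MCD diet (0), and 0 to 0 for the interaction (0). For hepatectomy it gave 2 to 3 on standard diet (2), 2 to 2 with agonist (2), 2 to 2 on MCD diet (2) and 0 to 2 with agonist (2).

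Same-numbered livers correlated at -0.21 to 0.44, with every pair over 0.1 in none of the comparisons (at most 3 of 4 pairs, for MCD diet under agonist at baseline), so the numbers were not treated as pairs. That 16 of 32 arrays were closest to their own number is a hint of pairing from the data, not the design. As a block, the number left 5 genes called for MCD diet at baseline, with Egf at adjusted p = 0.05508, and 5 under agonist, with Erbb3 at adjusted p = 0.04286, and changed no other call. Scaling moved the median of all genes for MCD diet at baseline from -0.13 to 0.23 with median scaling, and the share of calls that were higher from 41.1% to 78.3% (27.5% with normexp correction), and for the agonist on MCD diet at baseline from 66.9% to 16.9%, and for the interaction from 55.5% to 9.6%. A signal below background limits Areg and Ereg to bounds, which depend on the background treatment.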
